A study of Mus musculus with 4 samples.

Results

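A set of 9 genes of the alpha- and beta-tubulin families is described here in the mouse hippocampus after global cerebral ischemia (GCI). They are the beta-tubulins Tubb6, Tubb3, Tubb2a, Tubb2b and Tubb5 and the alpha-tubulins Tuba1a, Tuba1b, Tuba1c and Tuba4a, 9 of the 22609 gene symbols counted. They were selected on measured values of these libraries, the counts scaled by library of FBN-ARO-KO+GCI against FLOX+GCI, so their genotype differences are given as a description and support nothing.

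RNA-Seq was performed on 4 libraries of hippocampus, with 2 FLOX+GCI and 2 FBN-ARO-KO+GCI libraries. All were age-matched females of 3 to 5 months that had been ovariectomized 1 week before surgery, underwent bilateral common carotid artery occlusion for 20 min and were reperfused for 24 h. FBN-ARO-KO mice lack Cyp19a1, which encodes aromatase, the enzyme that makes estradiol from androgens, through Cre recombinase driven by the CaMKIIα promoter in forebrain excitatory neurons. The gene is not deleted in other cell types, which says nothing of their aromatase level, and FLOX mice are the controls. All 4 libraries were ischemic, so a link of any tubulin to injury itself could not be examined against a sham group here. The labels do not state that the libraries of a genotype came from separate mice, and the series' design text speaks of sequencing in duplicate, so whether the spread between them is technical is not known. That spread was above counting error, with a chi-square per degree of freedom of 10.5 in FLOX+GCI and 12.3 in FBN-ARO-KO+GCI. Cyp19a1 itself gave only 4 and 1 counts in the FLOX+GCI pair, and 2 each in the FBN-ARO-KO+GCI pair, which is not enough to check the labels.

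Microtubules are polymers of dimers, each made of 1 alpha- and 1 beta-tubulin. The isotypes share a conserved body and differ mostly in a short acidic C-terminal tail, which reaches out from the microtubule and carries the polyglutamylation, tyrosination and detyrosination marks read by motors and microtubule-associated proteins. Tubb3 is the classic neuronal isotype, Tuba1a the main alpha-tubulin of developing neurons, and Tubb6 a beta-tubulin of low abundance in brain that is known to rise in injured neurons.

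The ends of the coding sequences, which encode those tails, are shown because most isotypes differ most there, and because a short read must cover a differing base to be assigned to one gene of a near-identical pair. Each line gives the last 60 bases of the coding sequence of the GENCODE transcript, stop codon included, 5′ to 3′ on the strand of the gene, all in exon 4. Capitals mark bases that differ between Tubb2a and Tubb2b.
Tubb3: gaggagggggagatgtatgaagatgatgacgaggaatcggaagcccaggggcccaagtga
Tubb2a: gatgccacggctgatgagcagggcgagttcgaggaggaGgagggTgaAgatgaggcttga
Tubb2b: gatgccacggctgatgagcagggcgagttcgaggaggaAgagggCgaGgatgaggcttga
Tubb5: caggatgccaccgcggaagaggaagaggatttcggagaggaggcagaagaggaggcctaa
Tuba1c: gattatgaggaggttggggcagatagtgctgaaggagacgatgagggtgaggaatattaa
Tuba4a: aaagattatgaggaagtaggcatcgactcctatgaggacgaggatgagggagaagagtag

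In mm9 these ends lie at chr8:125945523-125945582 (plus strand) for Tubb3, chr13:34166337-34166396 (minus) for Tubb2a, chr13:34219340-34219399 (minus) for Tubb2b and chr17:35971927-35971986 (minus) for Tubb5. Those of the alpha-tubulins lie at chr15:98868381-98868440 (plus) for Tuba1c and chr1:75212197-75212256 (minus) for Tuba4a. The ends of the other isotypes are not shown. Before the stop codon, Tuba1c carries tat, a codon for tyrosine, the residue that the detyrosination cycle removes and restores. Tuba4a carries gag, a codon for glutamate, so its product is made without that tyrosine.

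Tubb2a and Tubb2b differed at 3 of these 60 bases. Over the whole coding sequence, identity was 98.3% between Tuba1a and Tuba1b, 97.1% between Tuba1a and Tuba1c, 97.9% between Tuba1b and Tuba1c and 96.5% between Tubb2a and Tubb2b. Tuba4a shared between 84.7% and 85.3% with the Tuba1 genes. Tubb6 was between 80.3% and 85.9% identical to the other beta-tubulins, and between 47.8% and 53.0% over the last 60 bases.

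Reads were 50 bases long and reads with several alignments entered no gene's count, so each transcript was divided into all its 50-base windows and each window was searched in both strands of mm9. Of the windows, 99.7% occurred once for Tubb6, 98.2% for Tubb5, 98.3% for Tuba4a and 88.3% for Tubb3. The share was 49.2% for Tubb2a and 42.3% for Tubb2b, which had 712 windows in common. It was 28.0% for Tuba1a, 14.3% for Tuba1b and 36.8% for Tuba1c. Inside the coding sequence of Tuba1b, only 5.13% of windows were unique. Within the 60 bases printed above, 11 of 11 windows occurred once for each of the 6 genes shown. Counts of Tubb2a, Tubb2b and the Tuba1 genes therefore rest on a part of each transcript and are uncertain as levels. For Tuba4a, 584 of 2004 windows (29.1%) also occurred in a transcript of the overlapping gene Stk16, so its level is uncertain too. The map of unique windows shows where these parts lie.

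**Figure D1:**
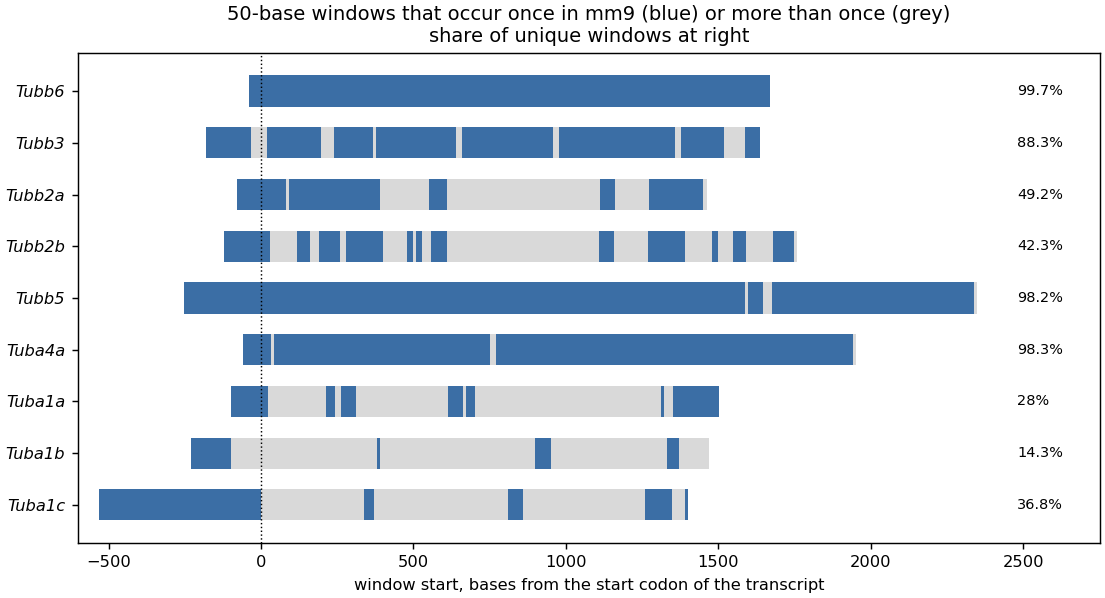
The 50-base windows of the 9 tubulin transcripts, in short bins by the position of their first base from the start codon (x axis, bases). A bin is blue where most of its windows occur once in mm9, and grey otherwise. Tubb6, Tubb5 and Tuba4a are blue over nearly their whole length, while Tuba1a, Tuba1b and Tuba1c keep 28.0%, 14.3% and 36.8% unique windows. Of the windows inside their coding sequences, 13.6%, 5.13% and 9.38% are unique.

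Depth was between 24333396 and 33076795 counts on genes. All values below are CPM, counts per 1000000 counts on genes, scaled by edgeR's TMM factors, on which 3 counts, the smallest level that can be shown, are between 0.0905 and 0.122 CPM. This floor and the intervals given for single libraries cover counting error only. Defining markers of neurons were present at a summed level between 7748 and 8580 CPM, of astrocytes between 4982 and 6075 CPM, of oligodendrocytes between 3886 and 4579 CPM and of microglia between 242.8 and 283.1 CPM. Endothelial and mural markers summed to between 137.6 and 265.6 CPM, immature neuron markers to between 46.9 and 59.98 CPM, choroid plexus markers to between 43.59 and 64.41 CPM and ependymal markers to between 12.29 and 14.65 CPM. Dividing cell markers summed to at most 2.15 CPM and red blood cell markers to at most 4.15 CPM, with 4 of 5 of the latter, the globin genes, at 0 in all 4 libraries. FLOX+GCI replicate 2 stood apart for the sum of reactive astrocyte markers (Gfap, Vim, Cd44, Lcn2, Timp1, Serpina3n and S1pr3). It was 1472 CPM there and between 703.6 and 863.9 CPM in the other 3 libraries. Gfap, at 900.3 CPM, and Serpina3n, at 438.2 CPM, made up most of that 1472 CPM. Lcn2 was at 4.95 CPM there and higher in both FBN-ARO-KO+GCI libraries, at 8.18 and 5.63 CPM. In these bulk libraries, fewer cells of a type and less RNA per cell cannot be told apart.

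Tubb6, on chromosome 18 of mm9 from 67550371 to 67562402 on the plus strand, was the rarest beta-tubulin among the 9 genes and the isotype that differed most between the FLOX+GCI libraries. FLOX+GCI replicates 1 and 2 held 25 and 149 counts of it, and FBN-ARO-KO+GCI replicates 1 and 2 held 38 and 22. This is 0.998 CPM (95% Clopper-Pearson interval 0.645 to 1.47) and 6.05 CPM (5.11 to 7.09) in FLOX+GCI, and 1.15 CPM (0.811 to 1.57) and 0.751 CPM (0.471 to 1.14) in FBN-ARO-KO+GCI. One library was high, FLOX+GCI replicate 2, at 6.26-fold the mean of the other 3, whose intervals overlapped each other, and the genotypes overlapped because FLOX+GCI replicate 1 lay between the FBN-ARO-KO+GCI libraries.

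The group means of Tubb6 were 3.52 ± 3.57 CPM (SD, n = 2) for FLOX+GCI and 0.949 ± 0.279 CPM (SD, n = 2) for FBN-ARO-KO+GCI, and its log2 fold change was -1.88 (standard error 0.73). Leaving out FLOX+GCI replicate 2 gave -0.07, and leaving out FLOX+GCI replicate 1 gave -2.65. The genotype difference of Tubb6 thus rested on a single library. On log2 CPM with a prior count of 2, replicate 2 of FLOX+GCI exceeded replicate 1 by 2.52 for Tubb6, and 12 of the 14527 genes tested, 0.0826%, rose more between these libraries. The median absolute difference between these libraries over all genes was 0.13. Between the FBN-ARO-KO+GCI libraries Tubb6 differed by -0.57 on the same scale.

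The 8 genes whose pattern over the 4 libraries was nearest to that of Tubb6, by Euclidean distance between centred log2 CPM values, were Serpinf2, Socs3, Ccdc80, 1500015A07Rik, Cd44, Plaur, Mamdc2 and Pcdhgb8. Serpinf2, which encodes the plasmin inhibitor alpha-2-antiplasmin, was the nearest at a distance of 0.50, with 23 and 125 counts in FLOX+GCI, against 24 and 23 in FBN-ARO-KO+GCI. Socs3, a feedback inhibitor of cytokine signaling through STAT3, had 57 and 330 counts in FLOX+GCI, against 49 and 45 in FBN-ARO-KO+GCI. Cd44, the hyaluronan receptor, had 118 and 529 counts in FLOX+GCI, against 130 and 145 in FBN-ARO-KO+GCI, and Plaur, the urokinase receptor, had 11 and 38 against 12 and 10. All 8 were highest in FLOX+GCI replicate 2, which follows from the measure, and the likeness rests on that library.

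The share of all genes that, like Tubb6, were highest in FLOX+GCI replicate 2 is not given, so nothing is read from the marker counts that follow. Of the 7 reactive astrocyte markers, 6 were highest in that library, and none was at 0. It was also the highest library for 3 of 6 neuron, 3 of 6 microglia, 3 of 5 dividing cell and 2 of 6 oligodendrocyte markers. For astrocyte and immature neuron markers this held for 1 each. It held for 0 of the endothelial and mural, choroid plexus, ependymal and red blood cell markers. The reactive astrocyte list summed to between 703.6 and 1472 CPM in FLOX+GCI and between 852.4 and 863.9 CPM in FBN-ARO-KO+GCI. The size of the rise varied, and Vim had only 66.5 and 72.5 CPM in FLOX+GCI, against 54.85 and 44.1 CPM in FBN-ARO-KO+GCI. Gfap, the intermediate filament of astrocytes, had 9918 and 22192 counts in FLOX+GCI, against 16654 and 16409 in FBN-ARO-KO+GCI. Unlike Tubb6, Gfap had a higher CPM in both FBN-ARO-KO+GCI libraries than in FLOX+GCI replicate 1. Timp1, a metalloproteinase inhibitor, had 5 and 203 counts in FLOX+GCI, against 5 and 4 in FBN-ARO-KO+GCI. Lcn2, the list's exception, was highest in FBN-ARO-KO+GCI, with 59 and 122 counts in FLOX+GCI, against 271 and 165. The part of these markers in the Tubb6 values was not tested. The distance weighs the size of the differences as well as their shape. By it the nearest isotypes were Tuba1c at 1.94, rank 876 among the genes tested, and Tubb2b at 1.97, rank 1070. Tubb2b was also highest in FLOX+GCI replicate 2, but at 1.27-fold the mean of the other 3 libraries.

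**Figure D2:**
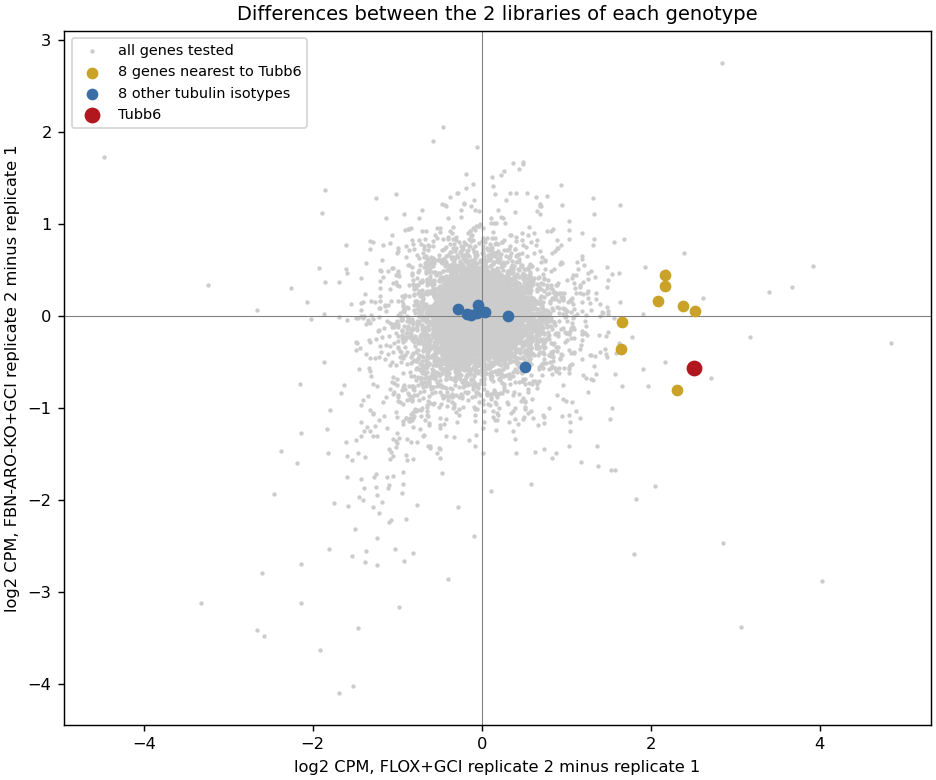
Difference in log2 CPM between replicate 2 and replicate 1 of FLOX+GCI (x axis) and of FBN-ARO-KO+GCI (y axis) for the 14527 genes tested, with Tubb6 in red, the 8 other tubulin isotypes in blue and the 8 genes nearest to Tubb6 in yellow. Tubb6 lies far to the right at 2.52, with the 8 nearest genes around it, while the other isotypes lie near the centre, Tuba1c, with 16 counts or fewer in every library, the farthest out.

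The CPM of the neuronal beta-tubulins Tubb3, Tubb2a and Tubb2b lay slightly lower in FBN-ARO-KO+GCI, a direction that turned for Tubb3 and Tubb2a under the offset for GC content and length described below. Tubb3, on chromosome 8 from 125935324 to 125945915, had 269 and 259 CPM in FLOX+GCI, against 236 and 242 CPM in FBN-ARO-KO+GCI. Both FBN-ARO-KO+GCI libraries were below both FLOX+GCI libraries, with a log2 fold change of -0.14 (standard error 0.07). Its locus overlaps the annotated gene Gm20388, and since no source used here says whether counting used strand, reads of overlapping genes cannot be told apart.

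Tubb2a, a class II isotype abundant in adult neurons, lies on chromosome 13 from 34166170 to 34169877. It had 400.4 and 411 CPM in FLOX+GCI, against 372 and 382 CPM in FBN-ARO-KO+GCI, with a log2 fold change of -0.11 (standard error 0.07). The groups did not overlap. Tubb2b, its neighbor on the same chromosome from 34218877 to 34222223, is needed for cortical neuron migration. It had 81.9 and 101.9 CPM in FLOX+GCI, against 79.0 and 78.9 CPM in FBN-ARO-KO+GCI, with a log2 fold change of -0.22 (standard error 0.11). FLOX+GCI replicate 2 was again the highest library for Tubb2b, and without it the log2 fold change was -0.06.

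Tubb5, a beta-tubulin made in most cell types and abundant in dividing cells and glia, lies on chromosome 17 from 35970871 to 35975251. It had 538 and 492 CPM in FLOX+GCI, against 480.3 and 482 CPM in FBN-ARO-KO+GCI, and its log2 fold change was -0.10 (standard error 0.07). The groups did not overlap, but the gap between the lower FLOX+GCI library and the higher FBN-ARO-KO+GCI library was smaller than that between the FLOX+GCI libraries. Its difference was -0.03 without FLOX+GCI replicate 1 and -0.16 without FLOX+GCI replicate 2, both as log2 fold changes.

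The alpha-tubulins overlapped between genotypes. Tuba1a, on chromosome 15 from 98780272 to 98783982, had 269.8 and 261 CPM in FLOX+GCI, against 250.2 and 272 CPM in FBN-ARO-KO+GCI, with a log2 fold change of -0.03 (standard error 0.07). The lowest and the highest value both came from FBN-ARO-KO+GCI. Tuba1b, the broadly expressed partner on chromosome 15 from 98761856 to 98764996, had 50.6 and 41.5 CPM in FLOX+GCI, against 42.8 and 45.2 CPM in FBN-ARO-KO+GCI, with a log2 fold change of -0.07 (standard error 0.11). Here both extremes came from FLOX+GCI.

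Tuba4a, on chromosome 1 from 75211549 to 75215828, had the highest CPM of the 9 genes. Its values were 600.2 and 532.5 CPM in FLOX+GCI, against 573 and 584 CPM in FBN-ARO-KO+GCI, and the log2 fold change was 0.03 (standard error 0.08). Its locus overlaps that of Stk16, with 29.1% of its windows in common, so shared reads are possible here too. Tuba1c, on chromosome 15 from 98860322 to 98868536, was barely detected, with 8 and 12 counts in FLOX+GCI, against 16 and 9 in FBN-ARO-KO+GCI. Its highest level, 0.487 CPM in FLOX+GCI replicate 2, had an interval of 0.251 to 0.850 that covered the values of the other 3 libraries, so a genotype difference was not detectable at this depth (log2 fold change -0.02, standard error 0.52).

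**Figure D3:**
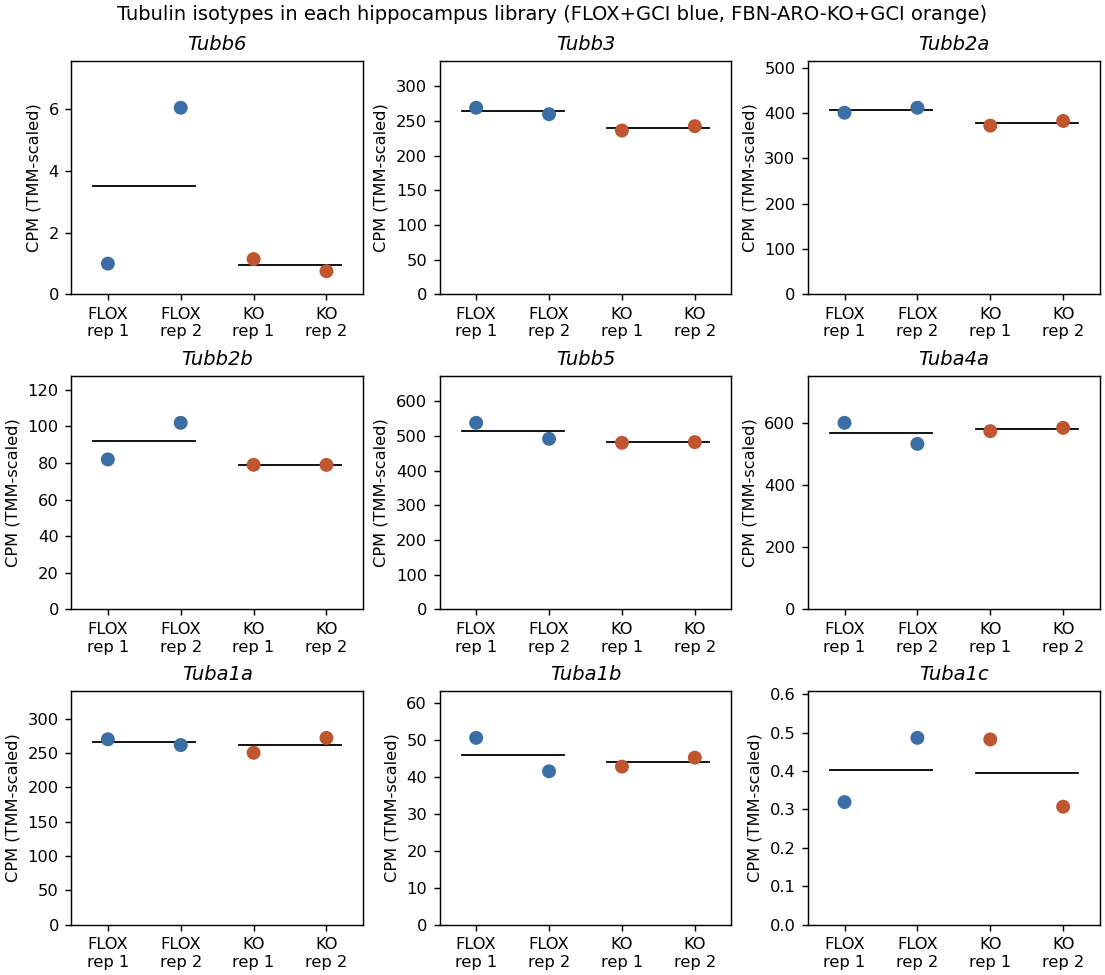
Level of each of the 9 tubulin isotypes (y axis, CPM scaled by TMM, each panel on its own scale from 0) in FLOX+GCI (blue) and FBN-ARO-KO+GCI (orange) libraries, with lines at the group means. Tubb6 shows 1 high library at 6.05 CPM, the other beta-tubulins lie slightly lower in FBN-ARO-KO+GCI (Tubb3 and Tubb2a turn to 0.07 on the log2 scale with the GC content and length offset), and the alpha-tubulins overlap.

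Counted together, 8 of the 9 isotypes had a log2 fold change below 0 and 1 above, with a median of -0.10, beside -0.01 over all 14527 genes tested. None of the 9 had an adjusted p under 0.05 (Benjamini-Hochberg over all genes, edgeR quasi-likelihood), beside 0.0138% of all genes. By DESeq2 it was also 0, beside 4.6% of the genes to which it gave an adjusted p, and 2 of the 9 had none. At an unadjusted p under 0.05 there was 1 of 9, Tubb6, beside 16.5% of all genes (7.82% of all genes lower in FBN-ARO-KO+GCI and 8.72% higher). The groups did not overlap for 4 of 9 isotypes, all lower in FBN-ARO-KO+GCI, beside 51.8% of all genes in either direction and 25.8% lower. Since the contrast was used to select the genes, nothing is read from these counts.

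The direction of most of these small differences depended on a joint offset for GC content and transcript length, whose parts were not separated. Across 14004 genes, the log2 fold change had a Spearman rho of -0.548 with the GC content of the transcript, given as a description over genes that are not independent. The 9 tubulin transcripts had between 52.1% and 57.9% GC, above the median of 50.6% of the genes tested. With an offset for GC content and length, 3 of 9 isotypes stayed below 0, namely Tubb6 at -1.69, Tubb2b at -0.12 and Tubb5 at -0.04. Tubb3 and Tubb2a turned to 0.07 each, Tuba1a to 0.08, Tuba1b to 0.09 and Tuba1c to 0.15, and Tuba4a went from 0.03 to 0.13. The median of the 9 was then 0.07, beside 0.03 over all genes. With library totals in place of TMM, all 9 were below 0, with Tuba4a at -0.005.

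**Figure D4:**
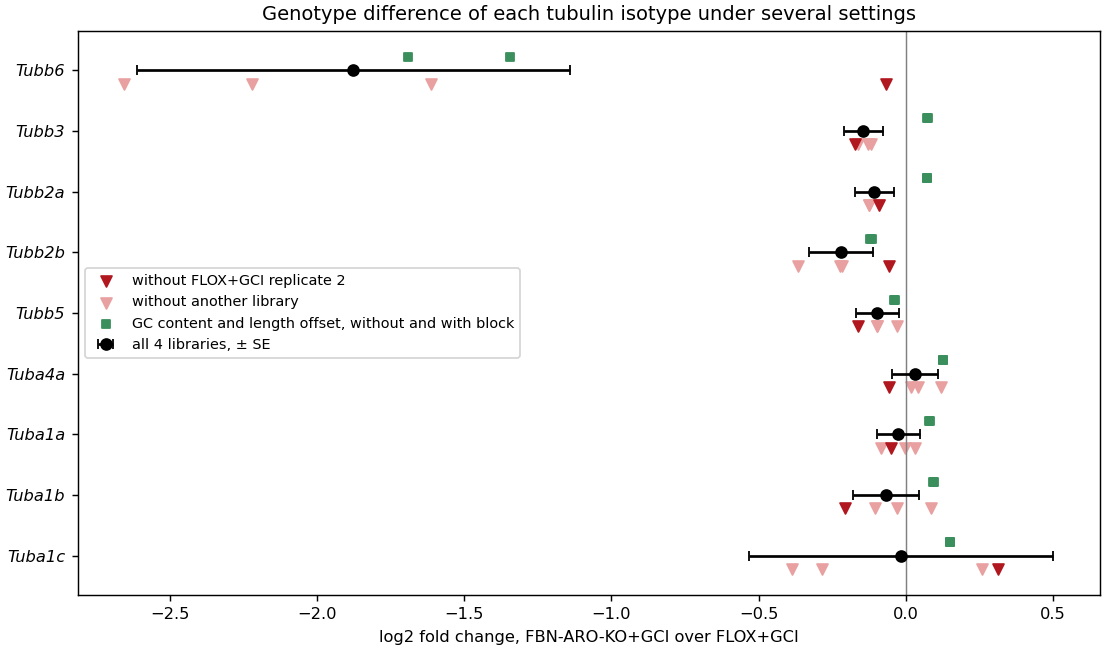
Log2 fold change of FBN-ARO-KO+GCI over FLOX+GCI (x axis) for each tubulin isotype from all 4 libraries (black, ± standard error), with 1 library left out (triangles, dark red without FLOX+GCI replicate 2) and with the GC content and length offset (green squares). Tubb6 moves from -1.88 to -0.07 without FLOX+GCI replicate 2, and Tubb3 and Tubb2a cross to 0.07 under the offset, as do Tuba1a, Tuba1b and Tuba1c to other values above 0.

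Levels were compared between genes as CPM per kb of transcript. Among the alpha-tubulins the order was Tuba4a, between 259 and 292 over the 4 libraries, Tuba1a, between 152 and 165, Tuba1b, between 23.8 and 29.0, Tuba8, between 4.72 and 6.24, and Tuba1c, between 0.155 and 0.246. Among the beta-tubulins, Tubb4, the older symbol of the neuronal and oligodendrocyte isotype Tubb4a, came first with 339 to 362, then Tubb2a with 235 to 260, Tubb5 with 182 to 203, Tubb3 with 126 to 144, Tubb2c (now Tubb4b) with 72.7 to 74.7, Tubb2b with 41.1 to 53.0 and Tubb6 with 0.428 to 3.44. The ranges of no neighbors in either order overlapped.

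This order depended on the length used. CPM per kb of unique 50-base windows corrects for reads that could not be placed but assumes even coverage. It does not correct for windows shared with an overlapping gene, such as those of Tuba4a with Stk16. In this unit Tuba1a came first among the alpha-tubulins with 560 to 608, then Tuba4a with 270.3 to 305 and Tuba1b with 172 to 209. Tubb2a came first among the beta-tubulins with 493 to 545, ahead of Tubb4 with 349 to 373. Tubb2c, of whose windows 41.8% were unique, had 180 to 184 and passed Tubb3, with 147 to 167. The share of Tuba4a in all alpha-tubulin fell from 59.3 ± 1.00% (SD, n = 4) per kb of transcript to 27.1 ± 0.801% per kb of unique windows, and that of Tuba1a rose from 34.0 ± 1.17% to 55.0 ± 1.34%. The change of unit thus moved these shares by far more than the libraries differed among themselves.

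Within either unit, the make-up differed little between genotypes. Per kb of transcript, Tuba4a made up 58.8 ± 1.02% (SD, n = 2) of alpha-tubulin in FLOX+GCI and 59.8 ± 0.964% in FBN-ARO-KO+GCI, and Tuba1a 34.4 ± 1.55% and 33.6 ± 1.01%. Tubb2a made up 24.0 ± 0.748% of beta-tubulin in FLOX+GCI and 23.7 ± 0.371% in FBN-ARO-KO+GCI, and Tubb3 13.2 ± 0.173% and 12.7 ± 0.191%. Tubb6 was 0.0527% and 0.325% of beta-tubulin in FLOX+GCI, against 0.0651% and 0.0425% in FBN-ARO-KO+GCI, so even in its highest library it was a trace of the beta-tubulin pool.

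**Figure D5:**
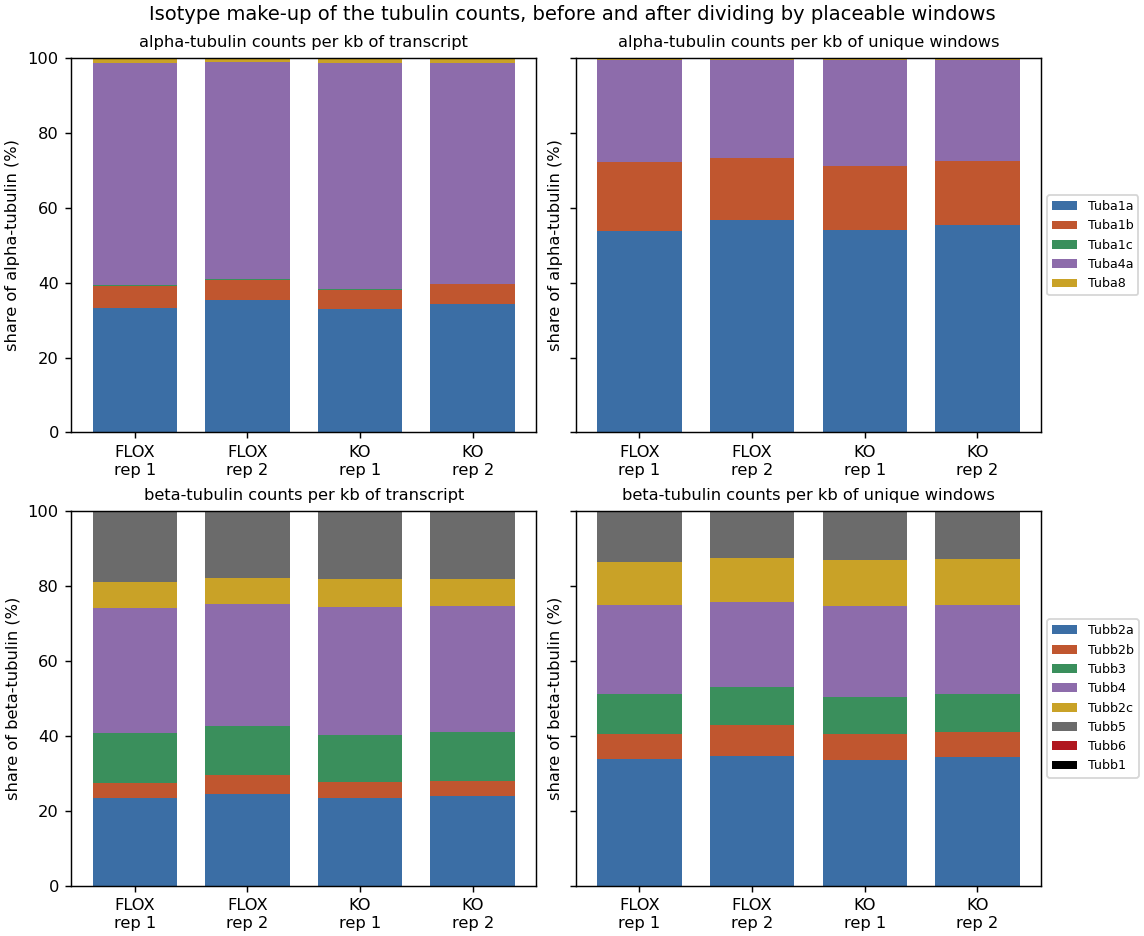
Share of each isotype (y axis, percent) in the alpha-tubulin counts (top) and beta-tubulin counts (bottom) of the 4 libraries, per kb of transcript (left) and per kb of unique 50-base windows (right). The 4 libraries look alike within a panel, while Tuba4a leads the alpha-tubulins at 59.3% on the left and Tuba1a at 55.0% on the right. Isotypes with few counts, such as Tubb6, are too small to see.

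The files held 11 other genes of the tubulin superfamily, of which 7 were tested. By edgeR's quasi-likelihood test 0 of the 7 had an adjusted or an unadjusted p under 0.05, beside 0.0138% and 16.5% of all genes. DESeq2 called 0 of the 4 to which it gave an adjusted p, beside 4.6% of all such genes. Tubb4 had 20185 and 18927 counts in FLOX+GCI, against 25322 and 22129 in FBN-ARO-KO+GCI, or -0.05 on the log2 scale (standard error 0.07). Tubb2c had 2942 and 2941 counts in FLOX+GCI, against 3930 and 3405 in FBN-ARO-KO+GCI, or -0.01 on the log2 scale (standard error 0.07), and Tuba8 had 348 and 259 against 446 and 379. The gamma-tubulins of the nucleating ring complex were Tubg1, with 937 and 1090 counts against 1210 and 959, and Tubg2, with 1042 and 968 against 1327 and 987. Tubd1 had 144 and 180 counts against 236 and 170, and Tube1 had 41 and 39 against 65 and 72, both being tubulins of centrioles and basal bodies. The other 4 were not tested. Tubb1, the platelet isotype, had 3 and 0 counts in FLOX+GCI, against 0 and 1 in FBN-ARO-KO+GCI, Tuba3a, a testis isotype, 0 and 2 against 3 and 0, Tubal3 1 and 0 against 1 and 0, and Tuba3b was at 0 in all 4 libraries. The pseudogene Tubb2a-ps2 had 932 and 1124 counts in FLOX+GCI, against 1245 and 1227 in FBN-ARO-KO+GCI, so some reads of the Tubb2 sequence family were counted there.

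Genes that fold, modify, bind and move along tubulin were taken from 8 lists with 125 symbols in the files including the other tubulins, of which 119 were tested. With Benjamini-Hochberg adjustment over all genes in edgeR, 0 of 119 had an adjusted p under 0.05. DESeq2 called 3 of the 89 to which it gave an adjusted p, namely Mtap7, Mtap1s and Spast, beside 4.6% of all 6240 such genes. At an unadjusted edgeR p under 0.05, 11 were higher in FBN-ARO-KO+GCI and 6 were lower, 14.3% together beside 16.5% of all genes. The chaperones and cofactors that fold tubulin had 1 of 20 higher and 1 lower, 10% together, with a median log2 fold change of -0.01. Vbp1, a subunit of the prefoldin chaperone, was at 0.32 (standard error 0.10), and Tbcb, a cofactor that works on alpha-tubulin, at -0.18 (standard error 0.08). With the GC content and length offset Vbp1 was at 0.07 and Tbcb at 0.006, and neither stayed under the unadjusted threshold. Ttc5, which recognizes nascent tubulin when tubulin mRNA is degraded in autoregulation, was at 0.003 (standard error 0.10), and its partner Scaper at 0.21 (standard error 0.10), neither under the unadjusted threshold, and the offset gave 0.07 and 0.06.

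Of 22 tested enzymes that modify tubulin, 1 was higher and 0 were lower at the unadjusted threshold, with a median of -0.02. This is 4.5%, beside 16.5% of all genes. Agtpbp1, which shortens polyglutamate chains on tubulin tails, was at 0.20 (standard error 0.07), and Ttll7, a polyglutamylase of beta-tubulin, at 0.19 (standard error 0.10) without passing it. With the offset Agtpbp1 was at 0.09, no longer under the threshold, and Ttll7 at 0.02. Of 17 microtubule-associated proteins, 4 were higher and 2 lower, 35.3% together beside 16.5% of all genes, with a median of 0.10. Mtap7, the older symbol of Map7, which recruits kinesin-1, had 75.3 and 75.4 CPM in FLOX+GCI, against 95.2 and 97.0 CPM in FBN-ARO-KO+GCI, and its log2 fold change was 0.35 (edgeR adjusted p = 0.238, standard error 0.07). Mtap1s, now Map1s, had 54.2 and 53.8 CPM against 42.3 and 38.1 CPM, a log2 fold change of -0.43 (edgeR adjusted p = 0.238, standard error 0.09). The genotypes did not overlap for either gene, as for 51.8% of all genes, and neither passed the adjusted threshold in edgeR. With the GC content and length offset Mtap7 was at 0.39 and stayed under the unadjusted threshold, while Mtap1s was at -0.12 and left it.

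Of 9 genes that bind tubulin dimers, 0 were higher and 1 was lower, 11.1% beside 16.5% of all genes, with a median of 0.01. Stmn3, a stathmin that sequesters dimers, was at -0.24 (standard error 0.07), and at -0.003 with the GC content and length offset, and Stmn4 was at 0.10 (standard error 0.07), and at 0.25 with the offset, where it had an unadjusted p under the threshold. Of 22 genes for microtubule ends, severing and nucleation, 3 were higher and 0 lower, with a median of 0.11. This is 13.6%, beside 16.5% of all genes. Spast, the severing enzyme spastin, had 61.9 and 58.2 CPM in FLOX+GCI, against 73.4 and 84.3 CPM in FBN-ARO-KO+GCI, and its log2 fold change was 0.39 (edgeR adjusted p = 0.238, standard error 0.09), and 0.26 with the offset. Clip1, a plus-end binding protein, was at 0.21 (standard error 0.07), and at 0.17 with the offset.

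Of 20 motor genes, 2 were higher and 2 lower, 20% together beside 16.5% of all genes, with a median of 0.11. Klc2, a light chain of kinesin-1, was at -0.24 (standard error 0.07), which the offset brought to -0.002, and Kif21a, a kinesin that restrains microtubule growth, at 0.23 (standard error 0.08), which became 0.15 and left the unadjusted threshold. A further list held 8 genes associated with neuronal injury, of which 7 were tested, with a median of -0.21. At the unadjusted threshold 0 were higher and 3 lower (42.9%, beside 7.82% of all genes lower and 16.5% in either direction). The list was chosen with earlier results of these data known, so nothing is read from this share. By edgeR 0 had an adjusted p under 0.05, and by DESeq2 0 of the 4 to which it gave one. Ecel1, an endopeptidase induced by nerve injury, had 66 and 99 counts in FLOX+GCI, against 38 and 50 in FBN-ARO-KO+GCI, or -1.22 on the log2 scale (edgeR adjusted p = 0.238, standard error 0.32) and -0.98 with the offset. Jun, the transcription factor of the injury response, was at -0.24 (standard error 0.07), and at -0.11 with the offset, no longer under the unadjusted threshold. Gap43, a growth cone protein, was at -0.21 (standard error 0.09), with an unadjusted edgeR p of 0.0474, just under the threshold. Its value with the offset is not given here. Sox11, at 0.20 (standard error 0.12), and Flrt3, at 0.15 (standard error 0.08), were above 0 without passing the threshold. Atf3, induced in injured neurons, had 34 and 86 counts in FLOX+GCI, against 51 and 27 in FBN-ARO-KO+GCI. It was at -0.97 (standard error 0.48) without passing the threshold, and Klf6 was at -0.03 (standard error 0.09). The highest library differed among the 7 tested genes. It was FLOX+GCI replicate 2 for Atf3, Ecel1 and Gap43, and FLOX+GCI replicate 1 for Jun and Klf6. For Sox11 and Flrt3 it was FBN-ARO-KO+GCI replicate 2.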

How the data were processed

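Total RNA from hippocampus was sequenced as 50-base single-end reads. The authors aligned the reads to mm9 with TopHat2 2.0.8b, per the labels, and deposited HTSeq counts per gene symbol, without normalization. The strand setting and annotation release are not given in the sources used here. Groups and replicate numbers came from the labels. The 5 counter rows were left out of library sizes and tests. They held reads that aligned to several places (between 35.1% and 36.5% of all rows' counts), outside genes (7.96% to 8.70%) and ambiguously (0.265% to 0.283%), and 2 counters are not reported here. Counts on genes were 24774433 and 24333396 for the FLOX+GCI pair, then 33076795 and 30114003 for the FBN-ARO-KO+GCI pair. Neither pair held a library deposited more than once (chi-square per degree of freedom 10.5 and 12.3).

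The genotype contrast used edgeR 4.0.16 (R 4.3.3) and its quasi-likelihood test, after TMM scaling and filterByExpr (minimum count 10) and Benjamini-Hochberg adjustment over all 14527 genes at 0.05. Standard errors were taken as |log2 fold change| over the square root of each F. The code was tested on simulated data. The study's methods used DESeq. Positions, transcripts and coding sequences came from GENCODE M1 on NCBIM37, the same build as mm9, and windows were exact matches. Some sequences are not reported here. The isotypes and gene lists were chosen with earlier results of these data known. Named were all 9 isotypes, the other tubulins, the 2 genes of each list with the smallest p, and the 8 genes nearest to Tubb6. Gap43, Klf6, Atf3, Sox11, Flrt3, Gfap, Vim, Timp1, Serpina3n and Lcn2 were named after their values were seen. Of the list symbols, Pfdn6, Cnot11, Camsap3 and Draxin were not matched. Alternatives were DESeq2 1.42.0, RLE size factors, library totals, every gene with at least 1 count, a replicate block, an offset from splines of GC content and length, each library left out in turn, and shares per other length units. Shares per unique window were added after seeing the data.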

Additional observations from a re-analysis of the deposited data

How the results depend on the processing

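The number of genes called depended on the method far more than the isotypes did. All 4 libraries gave 2 genes with edgeR's quasi-likelihood test, and RLE size factors or library totals also gave 2. Every gene with at least 1 count gave 5, DESeq2 gave 287 (209 higher and 78 lower), the replicate block 184 (42 higher and 142 lower), and the replicate block with the GC content and length offset 1. With 1 library left out the number was between 0 and 193, namely 193 without FLOX+GCI replicate 1, 127 without FLOX+GCI replicate 2 and 0 without either FBN-ARO-KO+GCI library, where 2772 (replicate 1) and 831 (replicate 2) genes had an unadjusted p under 0.05. The causes were not tested. A genotype left with 1 library is assumed to vary like the other.

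Of the 9 isotypes, 0 were called in the fit of all 4 libraries, and between 0 and 1 with a library left out, the 1 being Tubb6 without FLOX+GCI replicate 1. Under the replicate block 0 were called. DESeq2 gave no adjusted p for 2 of the 9, Tubb6 among them. Of the 119 other microtubule genes, 0 were called in the main analysis and with any 1 library left out, and 3 by DESeq2, namely Mtap1s, Mtap7 and Spast. Of 99 alternative log2 fold changes of the isotypes, 81 lay within 1 SD of the reported value and 16 had the other sign. The SD is that of the gene's log2 CPM within genotypes, pooled. For Tubb6 it is wide because of FLOX+GCI replicate 2, so even -2.65 counted as within it. The log2 fold change of Tubb6 lay between -1.91 and -1.34 under other settings, with -1.54 under the replicate block, and between -2.65 and -0.07 with a library left out.

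The deviations of same-numbered libraries correlated at 0.129 over 14527 genes. With 2 pairs and no label that ties them, the libraries share only a number. Depth limits Tuba1c and the isotypes that were not tested, and read length limits Tubb2a, Tubb2b, Tubb2c and the Tuba1 genes.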
